A study of Drosophila melanogaster with 2 samples.

Results

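The Toll receptor genes of Drosophila melanogaster were compared between wing discs with and without extra Taiman (Tai). Their rows were taken by gene symbol, and all 6 symbols (Tl, 18w, Toll-6, Toll-7, Tollo and Toll-9) were found among the 13989 genes of the deposited table. Wing discs, the epithelial sacs from which the wing and the dorsal thorax of the adult form, were taken from wandering larvae of the third instar reared at 25 °C. The control genotype (en>GFP, labelled GFP+, here GFP) expressed green fluorescent protein. The other genotype (en>GFP,Tai, labelled Tai+/GFP+, here GFP_Tai) expressed GFP and Tai, a coactivator of the ecdysone receptor. Both genotypes used the driver of engrailed, a gene of the posterior compartment. The RNA came from whole discs, pooled to 80 to 100 per genotype, so cells outside the driver's domain are included. A difference confined to that domain would therefore appear smaller in these values, and could fall short of 2-fold. Each genotype had 1 value per gene, in FPKM, a fragment count scaled by transcript length and library size, so that levels can be compared between genes. Triplicates are named in the design text, while 1 column per genotype was analysed here. Differences between the genotypes therefore have no replicate check, and none was tested.

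Toll receptors are single-pass membrane proteins with an extracellular array of leucine-rich repeats and, inside the cell, a TIR domain shared with the vertebrate Toll-like receptors and the interleukin 1 receptor. The founding member, Toll (Tl), binds the cleaved cystine-knot ligand Spätzle and acts through an adaptor and a kinase to free NF-kB factors from the inhibitor Cactus, which patterns the dorsoventral axis of the embryo and drives the antimicrobial response of the fat body. Several of the other receptors are best known for roles in cell contacts and cell movement in epithelia and in the nervous system.

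Of the 6 receptor genes, 4 were well expressed in the disc and 2 were at the edge of detection, in both genotypes. The 4 expressed genes, 18w, Toll-7, Tollo and Tl, had FPKM values between 19.8 and 62.1 and made up 99.9% of the family's summed FPKM in each library. None of these 4 was 2-fold higher or lower with Tai, and the one with the largest difference, Tl, was 1.28 times as high. Toll-9 and Toll-6 were below 0.2 FPKM in both libraries, on at most 6 fragments, too few to assess a 2-fold difference.

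The gene 18w (18 wheeler) encodes a receptor needed for the movements of follicle cells in the ovary and of the salivary gland in the embryo. It had the highest value of the 6 in both libraries, in GFP_Tai not beyond counting error above Toll-7, at 62.1 FPKM in GFP and 61.9 in GFP_Tai, from an estimated 2628 and 3421 fragments. The 2 levels were nearly equal, with a ratio of 0.996 and a 95% counting interval of 0.947 to 1.05. The interval is an exact binomial one and, like all intervals here, covers counting error only, not the spread between discs. Reads without molecular identifiers are not independent molecules, so these intervals may be too narrow even for counting error.

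Toll-7 encodes a receptor that, with the Toll-6 protein, serves as a neurotrophin receptor in the fly nervous system. Its level was 53.6 FPKM in GFP and 60.2 FPKM in GFP_Tai, from an estimated 2546 and 3738 fragments. The level was 12.3% higher with Tai, with a counting interval of 6.82% to 18.2%. The interval did not include equal levels, but 54.5% of the 8275 genes that reached an FPKM of 1 in at least 1 library (the minimum used here) had a log2 difference of at least the same size.

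Tollo, which encodes the receptor also called Toll-8, was at 46.6 FPKM in GFP and 43.5 in GFP_Tai, from an estimated 2642 and 3224 fragments. It was the one expressed receptor gene with a counting interval wholly below equal levels, at a ratio of 0.934 (0.887 to 0.984). The median ratio of the genes above the minimum was itself 0.979, which lay within this interval. Divided by that median, the ratio of Tollo was 0.953. A log2 difference of that size or more was found in 71.3% of genes above the minimum.

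Tl, the receptor of Spätzle, was the least abundant of the expressed genes, at 19.8 FPKM in GFP and 25.3 in GFP_Tai. It rested on an estimated 790 and 1319 fragments, and was 27.8% higher with Tai, with a counting interval of 16.9% to 39.7%. On the log2(FPKM + 1) scale the difference was 0.34, and 26.3% of genes above the minimum had a difference at least as large. Tl alone of the 4 lay outside the middle 50% of these genes, which ran from -0.19 to 0.18.

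Toll-9 encodes the fly receptor whose sequence most resembles vertebrate Toll-like receptors. Its values were 0.150 FPKM in GFP and 0.173 in GFP_Tai. These values equal 4 and 6 whole fragments, and their ratio of 1.15 had a counting interval of 0.272 to 5.53. No difference was detectable at this depth.

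Toll-6 encodes the second receptor of the neurotrophin pair. It was listed at 0 in GFP and had an FPKM of 0.0356 in GFP_Tai, which equals 2 fragments. A count of 0 allows up to 3 fragments, or 0.0697 FPKM, in the GFP library, so both libraries were at or under that floor and no ratio is given.

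**Figure D1:**
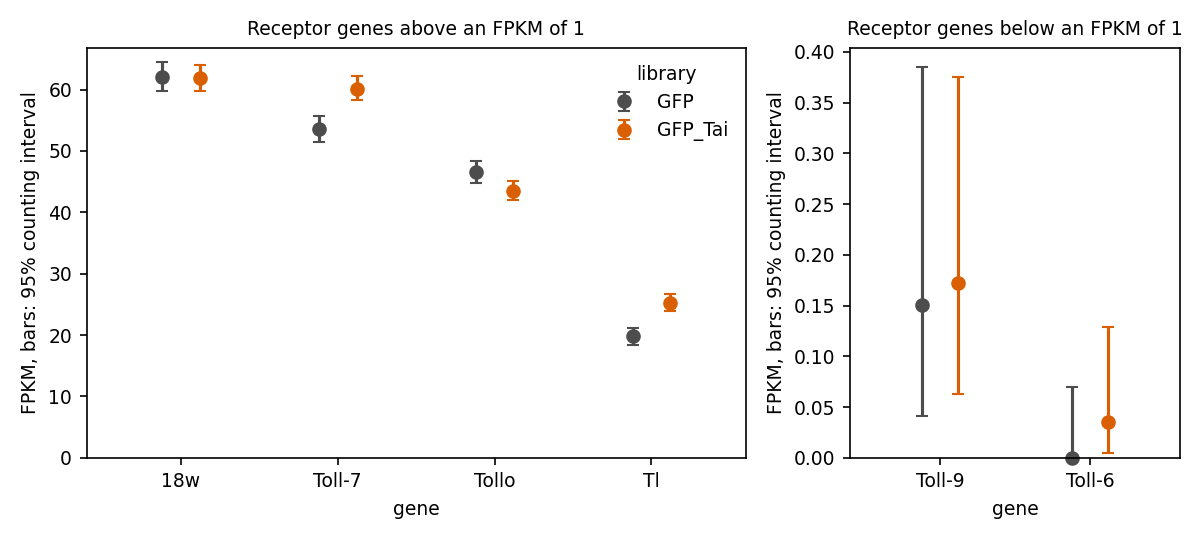
FPKM of the 6 Toll receptor genes in the GFP (grey) and GFP_Tai (orange) libraries, on linear axes with separate scales for genes above and below an FPKM of 1. Points are the deposited values, 1 per genotype, and bars are 95% counting intervals (for the 0 of Toll-6, the limit of 3 fragments), which overlap between genotypes for 18w, Toll-9 and Toll-6 and, by a narrow margin, for Tollo.

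The order of levels was the same in both libraries: 18w, Toll-7, Tollo, Tl, Toll-9, Toll-6. The distances between neighbours in that order were not the same. In GFP, 18w was 1.16 times as high as Toll-7 (1.098 to 1.22), while in GFP_Tai the ratio was 1.03 and its interval, 0.981 to 1.08, included equal levels. Toll-7 exceeded Tollo 1.15-fold in GFP (1.09 to 1.21) and 1.38-fold in GFP_Tai (1.32 to 1.45). Tollo exceeded Tl 2.36-fold in GFP (2.17 to 2.55) and 1.72-fold in GFP_Tai (1.61 to 1.84). The step from Toll-7 to Tollo was thus wider with Tai and the step from Tollo to Tl narrower. The whole span from 18w to Tl was 3.14-fold in GFP and 2.45-fold in GFP_Tai. Below Tl the levels broke off, since Tl was 132 times as high as Toll-9 in GFP (51.2 to 484) and 147 times in GFP_Tai (67.1 to 400.0). Toll-9 and Toll-6 could not be ordered by their counts in GFP_Tai, where the ratio of 4.85 had an interval of 0.867 to 49.1.

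The family's summed FPKM was 182 in GFP against 191 with Tai, a ratio of 1.05. Of that sum, 18w contributed 34.1% in GFP and 32.4% in GFP_Tai, and Toll-7 contributed 29.4% and 31.5%. The share of Tollo was 25.6% and 22.8%, and that of Tl was 10.9% and 13.2%. These shares of the summed FPKM thus differed by at most a few percentage points for any gene. Among all genes, 18w lay above 86.9% of the table in GFP and 87.3% in GFP_Tai, and Tl above 66.1% and 70.4%.

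Across the 4 genes above the minimum, the median log2 difference was 0.08, beside -0.02 for all 8275 genes. It was -0.0056 without Tl or without Toll-7, so its sign rests on these genes, and 0.04 with Toll-9 and Toll-6 included. Of the 4, 2 had a positive difference (Tl and Toll-7) and 2 a negative one (Tollo, and 18w by -0.0056, which became 0.02 when all differences were centred on the median gene). Among all genes, 46.2% had a positive difference. None of the 4 was at least 2-fold higher, where 6.31% of all genes were, and none was at least 2-fold lower, where 1.81% were. With 4 genes, a count of 0 is near these shares. In the authors' deposited table, which called 0.131% of the genes it tested, the p-values were 0.698 for Tl, 0.830 for Toll-7, 0.897 for Tollo and 0.993 for 18w, and none was called. Toll-6 and Toll-9 were marked there as not tested. Even the ligand gene spz4, at 0.159 FPKM in GFP and 12.4 in GFP_Tai, was not called there. A missing call there thus does not show equal levels.

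**Figure D2:**
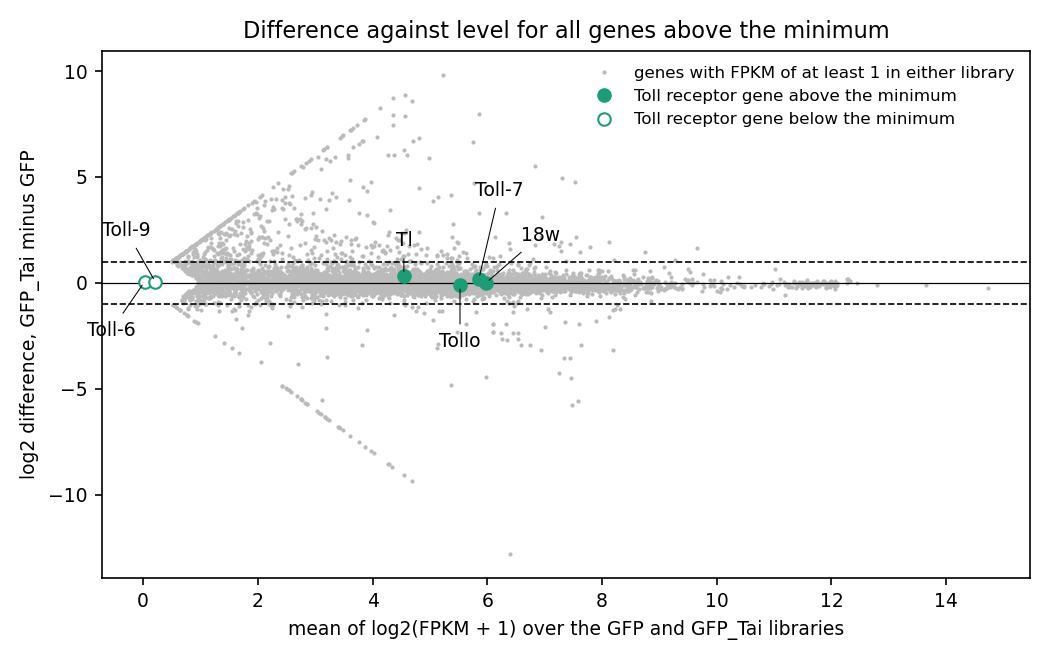
Log2 difference of each gene between GFP_Tai and GFP (vertical) against its mean level on the log2(FPKM + 1) scale (horizontal), for the 8275 genes above the minimum (grey) and the 6 Toll receptor genes (green, open circles where below the minimum). Dashed lines mark 2-fold, and the 6 receptor genes lie between them (the 2 below the minimum by construction of the scale), from -0.10 for Tollo to 0.34 for Tl.

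The receptor genes differ in structure. In the BDGP6 annotation (Ensembl release 115), 18w (2R:20111511-20116932, plus strand), Toll-7 (2R:19826578-19832973, plus), Tollo (3L:15235619-15242832, plus) and Toll-6 (3L:15336692-15344315, plus) each consisted of 1 exon that held the whole coding sequence. They encode 1385, 1446, 1346 and 1514 residues. Tl (3R:26799041-26842403, plus) had 4 exons spread over 43363 bases, 2 of them coding, for 1117 residues in its canonical transcript. Toll-9 (3L:20361843-20366724, minus) had 7 exons, 6 of them coding, for 900 residues. Of the 4 intronless genes, 3 were among the expressed receptors and 1, Toll-6, was not.

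**Figure D3:**
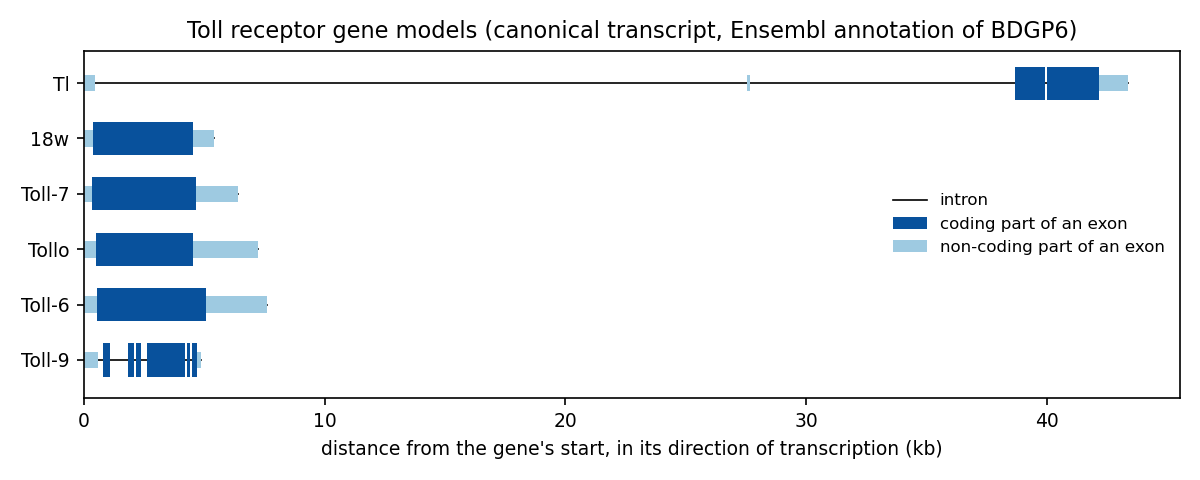
Models of the 6 Toll receptor genes, each drawn to scale from its start in the direction of transcription (kb), with coding (dark) and non-coding (light) parts of exons and introns as lines. The genes 18w, Toll-7, Tollo and Toll-6 are single exons, Toll-9 has 7 exons, and the 4 exons of Tl are spread over 43363 bases.

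The library kit named in the protocol does not mark strand, so overlapping transcripts would be counted together. No annotated gene shared an exonic base with any of the 6. The gene models behind the deposited values differed slightly from the current ones. The table's interval for Toll-6 was 2105 bases shorter at its downstream end than the longest current transcript, and that for Toll-7 began 327 bases further in, so fragments from those stretches would not be in the FPKM.

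The intronless receptor genes lie in pairs, Tollo with Toll-6 and Toll-7 with 18w. Tollo and Toll-6 are 93.9 kb apart on 3L, with 3 protein-coding genes between them, all of which were below an FPKM of 1 in both libraries. The members of that pair differed widely in level, with Tollo at 46.6 and Toll-6 listed at 0 in GFP. Toll-7 and 18w are 279 kb apart on 2R, with 13 protein-coding genes between them, of which 8 were matched in the table and 1 was above the minimum. Both genes of this pair were abundant. The nearest protein-coding neighbours of 18w, Toll-7, Tollo and Toll-6 that were in the table, 8 genes in all, were below the minimum in both libraries. Among them were the odorant-binding protein genes Obp56h, listed at 0 in GFP and at 0.336 in GFP_Tai, and Obp56i, with 0.347 and 0.266. Tl had 1 neighbour listed at 0 in both libraries, CG42789, 14833 bases away, and 1 that was expressed, and both neighbours of Toll-9 were expressed. Lerp, which encodes a lysosomal sorting receptor, lay 59 bases from the end of Tl and was at 5.06 FPKM in GFP and 4.73 in GFP_Tai. Toll-9 lay 258 bases from the DNA polymerase gene listed as DNApol-alpha60, with 19.8 and 14.5, and 474 bases from the wing hair gene in (inturned), with 22.6 and 19.5. None of these 3 neighbours was 2-fold different.

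The remaining Toll-related receptor genes of the fly were also near or at 0. MstProx and Toll-4 were listed at 0 in both libraries, and Tehao had 0.0310 FPKM in GFP and 0.0711 in GFP_Tai, values under 3 fragments. The disc libraries thus held 4 expressed Toll receptor genes among the 9 examined.

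All 6 genes of the Spätzle family were above the minimum, and their summed FPKM was 33.2 in GFP and 79.5 with Tai. Of the 6, 2 were at least 2-fold higher, spz4 and NT1, where 6.31% of all genes were. None was at least 2-fold lower, and the median log2 difference was 0.98. None of the 6 was called in the authors' deposited table. The ligand and receptor known to pair in the fly can be set side by side. For Tl, the ligand gene spz had FPKM 1.93 and 4.74, a ratio of 2.46 (1.61 to 3.82), beside the receptor's ratio of 1.28. For Toll-7, the neurotrophin gene NT1 had 5.86 and 14.7, a ratio of 2.51 (2.12 to 2.98), beside 1.12. For Toll-6, which was not detectable, the neurotrophin gene spz5 had 1.93 and 2.59, a ratio of 1.34 whose interval, 0.825 to 2.21, included equal levels. The ligand gene spz3 had 10.5 and 18.5, a ratio of 1.77 (1.49 to 2.10), and spz6 had 12.8 and 26.5, a ratio of 2.07 (1.72 to 2.52). Neither spz nor spz6 counts as 2-fold higher on the log2(FPKM + 1) scale, where both lay just under the threshold, at 0.97 and 0.99. The largest ligand difference was that of spz4, with 0.159 and 12.4, from an estimated 4 and 360 fragments. Its ratio was 78.1 (26.7 to 254), while its p-value in the authors' deposited table was 0.301. A missing call in that table thus does not show equal levels.

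Downstream of the receptors, most genes were close to equality. All 11 transducer genes were above the minimum, with a median log2 difference of 0.02. Of these, 1 (Dif) was at least 2-fold higher, near the 6.31% of all genes, and none was at least 2-fold lower. The authors' deposited table called none of the 11. The adaptor genes Myd88, at 21.1 FPKM in GFP and 22.5 in GFP_Tai, and tub, with 41.8 and 43.0, had counting intervals that included equal levels. So did the kinase gene pll, with 25.0 and 24.6, and Ect4, the fly Sarm gene, which encodes a further TIR-domain protein, with 22.4 and 23.7. The adaptor gene wek was lower, with 21.3 and 16.8, a ratio of 0.790 (0.674 to 0.925). The inhibitor gene cact was the most abundant transducer, with 73.5 and 74.3. Of the NF-kB genes, dl had 26.7 and 27.9, while Dif, which mediates Toll immunity, had 3.49 and 8.24, a ratio of 2.36 (1.91 to 2.94).

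Partners of the receptors, other surface proteins and targets were examined in the same way. Cirl, an adhesion G protein-coupled receptor that binds the Tollo protein, was far more abundant than Tollo, at 239 FPKM in GFP and 237 in GFP_Tai. The teneurin gene Ten-m had 44.2 and 48.7, and the kinase gene Src42A had 113 and 126. None of these 3 was 2-fold different. Of 12 genes for other surface proteins with leucine-rich repeats found in the table, 9 were above the minimum, with a median log2 difference of 0.04. None was at least 2-fold lower and 1 was at least 2-fold higher, near the 6.31% of all genes. That gene was haf, with 5.80 and 17.2, a ratio of 2.96 (2.56 to 3.45), and it was not called in the authors' deposited table. In the same list, conv had 33.3 and 45.5, and kek6 had 1.88 and 1.27. Of 10 target genes of Toll signals in immunity or cell death, 6 were above the minimum. None was at least 2-fold higher, where 6.31% of all genes were, and 1 was at least 2-fold lower, where 1.81% were. This was the antimicrobial peptide gene Mtk, with 1.91 in GFP and listed at 0 in GFP_Tai. The transcript of Mtk, at 270 nt, was too short for a fragment estimate, so this value may rest on very few fragments. The other 5 had positive differences, within counting error for Drs, Def, nec and rpr and without an interval for hid. The median log2 difference of the 6 was 0.53. The antimicrobial peptide gene Drs had 3.08 and 5.90, on an estimated 4 and 10 fragments. Def, of the same kind, had 3.34 and 5.10, on an estimated 5 and 10. Their ratio intervals, 0.552 to 8.36 and 0.477 to 5.71, included equal levels. The serpin gene nec had 0.525 and 1.27, a ratio of 2.42 whose interval, 0.931 to 7.41, included equal levels. The death gene rpr had 24.6 and 29.5, with a ratio interval of 0.955 to 1.51 that included equal levels. The death gene hid, listed as W, had 32.7 and 50.03, a ratio of 1.53. Its symbol was not matched to the annotation, so it had no fragment estimate and its counting error is not known. The embryonic stripe genes eve and run, which control Toll receptor genes in the early embryo, were at or near 0, with eve listed at 0 in both libraries and run on 1 fragment in GFP_Tai.

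**Figure D4:**
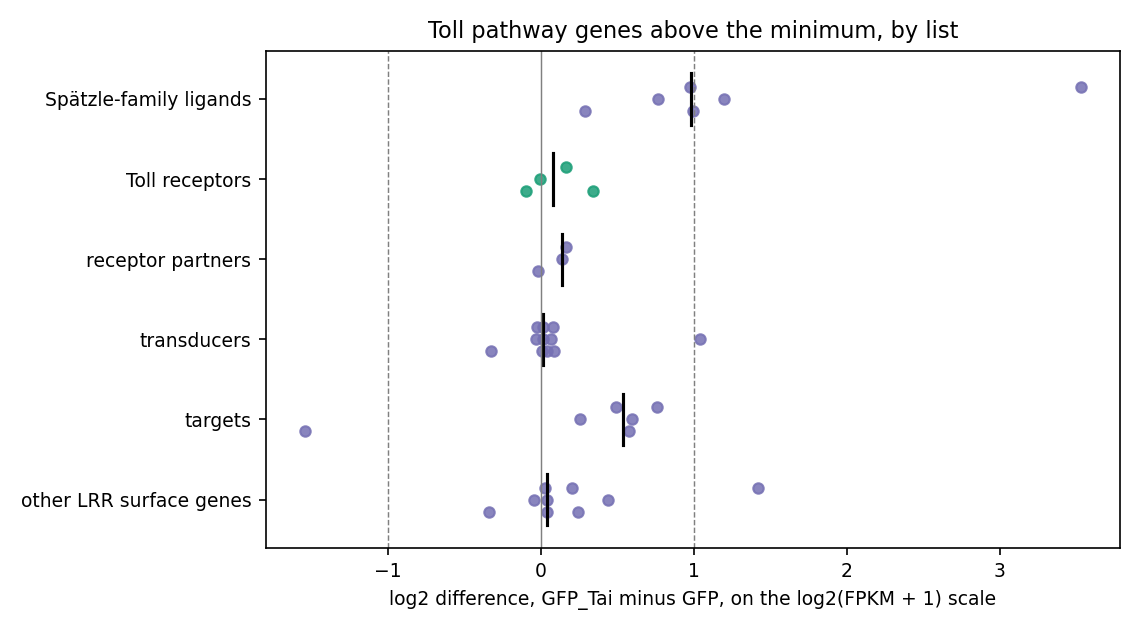
Log2 difference (GFP_Tai minus GFP, on the log2(FPKM + 1) scale) of each gene above the minimum in 6 lists, with the list's median as a black bar and 2-fold as dashed lines (LRR, leucine-rich repeat). The 4 receptor genes lie between -0.10 and 0.34, and the 6 ligand genes between 0.29 and 3.53.

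The gene nearest to Tl by Euclidean distance on the log2(FPKM + 1) scale over both libraries was spri, at 20.3 FPKM in GFP and 25.4 in GFP_Tai. CG4896, with 19.2 and 25.4, and CG42575, with 20.01 and 24.3, came next. With 1 value per genotype this likeness is loose, since 23 of the other 8274 genes above the minimum lay within 0.1 of Tl.

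The libraries carried their labelled genotypes, with tai at 27.1 FPKM in GFP and 879 in GFP_Tai, and held the markers of the wing disc. All 8 disc markers (nub, vg, ap, sd, wg, en, hh and ci) were above the minimum, with a summed FPKM of 579 and 568, and none was 2-fold different. They did not all lie near equality: hh had 39.8 and 52.2, a ratio of 1.31 (1.19 to 1.44), and nub had 74.8 and 63.0, a ratio of 0.842 (0.798 to 0.888). The depth was estimated at 8128766 fragments for GFP against 10621223 for GFP_Tai. Tl is also expressed in blood cells and fat body, and markers of both were present at low levels and higher with Tai, none of them listed at 0. All 5 blood cell markers found (Hml, Pxn, He, srp and eater) were higher in GFP_Tai, with a summed FPKM of 7.89 and 12.6. The ratio intervals of He (0.724 to 3.82) and eater (0.900 to 3.01) included equal levels, and those of Hml, Pxn and srp did not. All 5 fat body markers (Lsp1alpha, Lsp1beta, Lsp2, Fbp1 and Fbp2) were higher too, with a summed 18.7 and 29.2. Among these, Fbp2 alone had an interval that included equal levels (0.673 to 3.36). The part of blood cells and fat body in the differences of Tl and of the other Toll pathway genes was not tested. Markers of muscle precursors (twi, Him and htl) had a summed 49.8 and 47.7, and the tracheal genes trh and btl 24.8 and 23.7. The neuronal gene elav had 9.32 and 7.19, the synaptic gene brp had 0.115 and 0.173, and the glial gene repo had 0.221 and 0.271. In such whole-disc RNA, fewer cells of a type and less RNA per cell cannot be told apart.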

How the data were processed

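RNA sequencing of whole wing discs gave 1 value per gene for each of 2 genotypes. Per the submitters' processing notes, the tools were Cuffdiff 2.2.1, TopHat2 2.0.12 and CASAVA 1.4 and the build dm6, with no roles stated. What annotation or filters were applied, and how replicates were treated, is not stated there. The authors deposited FPKM values (RPKM in the table's name), scaled by them, and, per the file headers, a p-value and q-value per gene. The table's loci did not lie on dm6, so coordinates come from the BDGP6 annotation by gene symbol or synonym.

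From these values, the log2 ratio of GFP_Tai to GFP was computed with 1 added to each FPKM, so that differences of low genes come out too small. Genes had to reach an FPKM of 1 in at least 1 library, and 2-fold on this scale was the size rule. Ratios are plain FPKM ratios.

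Fragments were estimated because low values came in steps. For intronless genes with 1 transcript of the table's own length (332 genes), FPKM times the length less 215 nt was a whole multiple of 1 step, within 0.02, in 44 of 45 low genes in GFP and in 50 of 52 in GFP_Tai (under 8 fragments). The 215 nt and the step were chosen to make the share of whole multiples as large as possible, so that share is no separate check. The fit gave 8128766 and 10621223 fragments as the totals by which the values were scaled, which need not equal the numbers sequenced. The table's own interval was the length of Toll-6, Toll-7, Tollo and 18w, and the canonical transcript that of Tl, Toll-9 and other genes with introns, whose fragments are therefore less certain. Counting intervals are exact. With 1 library per genotype no count test was run. The calculations were tested on simulated data made with such steps, which checks the code and not whether real values follow them. The software was Python 3.11.15, numpy 2.4.6, pandas 2.3.3 and scipy 1.17.1.

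The members, lists and size rule were chosen with earlier results of these data known. The named genes are the 6 receptors, up to 3 genes per Toll list with the largest differences, a fixed set of ligands, transducers and partners, tai, and the 3 genes nearest to Tl. Gene neighbours, and genes such as tub, pll, Ect4, spz3, nec, Def, rpr, eve and run, were named after their values were seen. Lapsyn, NimC1 and nSyb were listed but not analysed here.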

Additional observations from a re-analysis of the deposited data

How the results depend on the processing

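The 4 log2 differences, the 4 ratios and the count of 0 receptor genes at 2-fold stayed within counting error, or at 0, under a pseudocount of 0.1 or 5, a minimum FPKM of 5 or none, centring on the median gene and a threshold of 1.5-fold or 3-fold, wherever each applied. The difference of Tl ranged from 0.29 to 0.36. Over 4 genes the median rests on each of them: it was -0.0056 without Tl or without Toll-7, 0.17 without 18w or without Tollo, and 0.04 over 6 genes with no minimum. The background counts of 522 higher and 150 lower genes were 648 and 222 with a pseudocount of 0.1, and 284 and 97 with one of 5. They were 354 and 111 with a minimum FPKM of 5, 813 and 325 at 1.5-fold, and 324 and 87 at 3-fold. No paired analysis was possible because each genotype has 1 library. Depth limits Toll-9 and Toll-6, for which 1 fragment is worth 0.0376 and 0.0232 FPKM in GFP. Without the minimum, their log2 differences were 0.03 and 0.05. With the shortest transcript in place of the canonical one, the counting interval of Toll-9 was 0.248 to 8.21 and that of Tl 1.17 to 1.405.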
